A study of Mus musculus with 12 samples.

Results

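H3S10pK14Ac is histone H3 that carries phosphorylated serine 10 and acetylated lysine 14 on the same tail, and its placement in mouse small pre-B cells was given by 2 lists of ChIP-seq peaks (chromatin immunoprecipitation, then sequencing of the recovered DNA). All peaks of both lists on chromosomes 1 to 19 and X were taken. They were 102 peaks of replicate 1 and 10637 peaks of replicate 2, in all 10739 of the 53086 peaks in the 6 ChIP-seq lists of the study. The other 4 lists were BRWD1 (5813 and 9964 peaks in replicates 1 and 2) and H3K9Ac (10117 and 16453 peaks). The study as a whole held 12 samples, which also included input DNA and ATAC-seq samples of both Brwd1 genotypes. Those are not analysed here.

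The cells were sorted from mouse bone marrow as Lin-B220+CD43-IgM-FSClow. This gate selects small, resting B-cell precursors that have assembled a heavy chain and are recombining the kappa light chain locus, Igk. The ChIP-seq samples were labelled with the strain C57BL/6 and with the antibody, and each antibody had 2 biological replicates. The labels give these samples no treatment, time or age. The sort is described for wild-type and Brwd1 mutant mice alike, and the labels name no genotype for the ChIP-seq samples. Peak lists hold no expression values, so the identity of the cells could not be checked against marker genes.

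Phosphorylation of H3 serine 10 is known from mitotic chromosomes, where it is widespread, and from interphase genes that are switched on by signalling kinases, where it occurs with acetylation of the neighbouring lysine 14. H3K9Ac, acetylation of lysine 9 of the same histone, marks active promoters and enhancers. BRWD1 is a bromodomain protein that binds modified histone tails and acts in small pre-B cells at the step of Igk recombination.

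The replicate 1 list was far shorter than that of replicate 2, and its peaks were narrower. It had 102 peaks against 10637, a median width of 62.5 bp against 175 bp, and a covered length of 8.885 kb against 2053.69 kb. Replicate 1 was also the narrower list in BRWD1 (median 71 bp against 196 bp), but not in H3K9Ac (375 bp against 208 bp). Both H3S10pK14Ac lists are part of a longer numbered series of peaks. The number in the name of the last peak was 14528 in replicate 1, of which 103 peaks were listed (0.709%, other sequence names included), and 77794 in replicate 2, of which 10642 were listed (13.7%). Read depth is unknown for both libraries. Since each antibody has only 2 lists, the smallest p of an exact two-sided permutation test is 0.333, so the comparisons below are descriptions without a test. Intervals are 95% Wilson intervals over peaks, which are not replicates, and cover counting error only. Sequences and genes are not given, since a genome and annotation of the build of the files, mm9, were not used here.

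Most of the replicate 2 list consisted of weak, narrow peaks, and the strong ones were few. The score of a peak is the authors' significance on a −log10 scale, and here it ranks and filters peaks within each list. Scores of different lists are set side by side as deposited, and the lists need not have the same depth. Replicate 2 scores ran from 5.01 to 70.64 with a median of 5.56. That same value, 5.56, was carried by 4616 peaks (43.4%), so ranks among the weakest peaks are not resolved. A score of 10 or more was reached by 211 peaks (1.98%) and a score of 20 or more by 32. In H3K9Ac, scores of 10 or more made up 24.8% and 13.99% of the lists of replicates 1 and 2, and in BRWD1 7.71% and 3.95%. Replicate 1 of H3S10pK14Ac had 8 such peaks of 102 (7.84%), and its scores ran from 5.02 to 85.81 with a median of 5.95. The peaks just inside the limit of 10 in replicate 2 were 3 peaks scored 10.03, and those just outside were scored 9.97, 9.93 and 9.93.

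Stronger peaks were wider, and most peaks of every class were under 400 bp. The replicate 2 widths ran from 142 to 1361 bp, with quartiles of 154 and 213 bp. The median width was 174 bp for the 10426 peaks scored under 10 and 247 bp for the 211 scored 10 or more. In finer classes the median rose from 167.5 bp under a score of 6 to 189 bp from 6 to 8, 216 bp from 8 to 10, 237 bp from 10 to 15, 257 bp from 15 to 20 and 285.5 bp from 20. No peak narrower than 150 bp (0 of 1895, which allows a share of up to 0.158%) scored 10 or more, whereas 25 of the 116 peaks of 400 bp or more did (21.6%, 15.05 to 29.9). Across peaks, Spearman's rho between score and width was 0.30 in replicate 2, against 0.55 and 0.52 in the H3K9Ac lists. The peaks of one list share a library, and score and width come from the same reads. The median H3K9Ac peak was 375 bp wide in replicate 1 and 208 bp in replicate 2.

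The score also separated the peaks by the company they kept. Of the 211 peaks scored 10 or more, H3K9Ac replicate 1 met 103 (48.8%, 42.2 to 55.5) and H3K9Ac replicate 2 met 140 (66.4%, 59.7 to 72.4). Of the 10426 scored under 10, they met 310 (2.97%, 2.66 to 3.32) and 609 (5.84%, 5.41 to 6.31). The mean over both H3K9Ac lists was 57.6% ± 12.4 (SD, n = 2 lists) for the stronger class and 4.41% ± 2.03 (SD, n = 2 lists) for the weaker class. The gap between the classes was larger than the spread between the H3K9Ac lists. Both lists were set against the same H3S10pK14Ac library, so the SD values do not cover variation between H3S10pK14Ac replicates. With H3K9Ac of either replicate, the share was 4.66% for scores under 6, 9.46% from 6 to 8, 23.0% from 8 to 10 and 57.7% from 10 to 15. It reached 22 of 23 peaks from 15 to 20 and 32 of 32 from 20 (lower limit 89.3%). BRWD1 followed the same order: 4.20% of the peaks under 10 and 67.3% of those from 10 overlapped BRWD1 of either replicate.

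**Figure D1:**
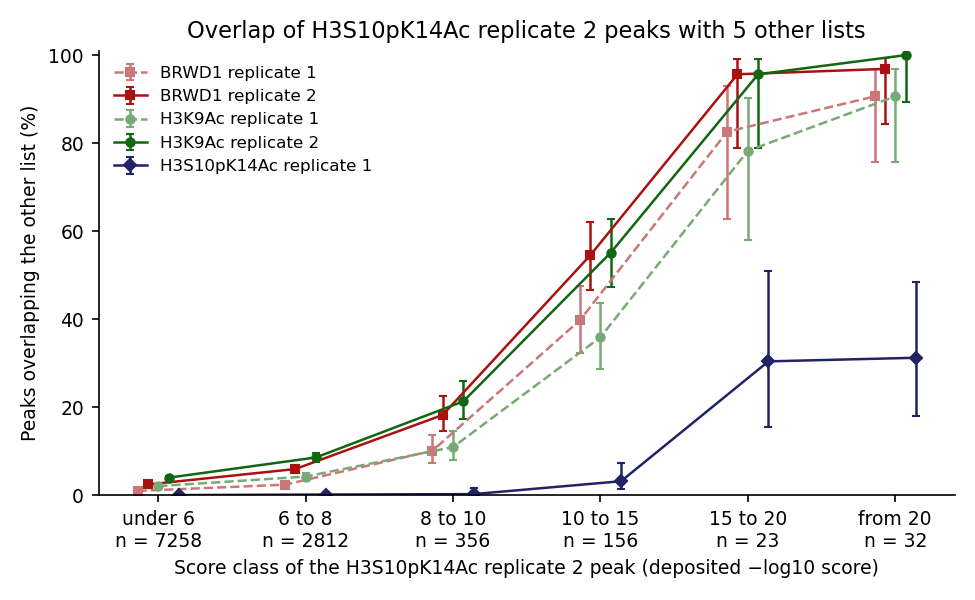
Share of H3S10pK14Ac replicate 2 peaks (vertical axis, percent) that overlapped each of the other 5 lists by at least 1 bp, in 6 classes of deposited −log10 score (horizontal axis, with the number of peaks). Points are shares and bars are 95% Wilson intervals over peaks. The BRWD1 and H3K9Ac shares lie at or below 4.01% under a score of 6 and between 90.6 and 100% from 20, while H3S10pK14Ac replicate 1 reaches 31.25%.

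The order with H3K9Ac broke at the weak end of the list. The 4616 peaks at the commonest score had the lowest overlap with H3K9Ac replicate 2, 2.34% (1.94 to 2.82). The 1539 peaks scored lower than these had 6.17% (5.08 to 7.49), and the 1103 scored higher but under 6 had 7.98% (6.52 to 9.73). With H3K9Ac replicate 1 the shares in the same order were 1.73%, 2.60% and 2.81%. For BRWD1 replicate 2 they were 1.93%, 2.73% and 4.35%. For BRWD1 replicate 1 they were 1.04%, 0.585% and 1.45%, so there the order by score held. Peaks at the commonest score had a median width of 165 bp, against 167 bp below it and 180 bp just above it.

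Among the weaker peaks, those that met H3K9Ac were more frequent in the wider classes. Among the peaks scored under 10, H3K9Ac of either replicate was overlapped by 4.64% of those under 150 bp, 4.59% from 150 to 200 bp, 9.40% from 200 to 300 bp, 17.2% from 300 to 400 bp and 27.5% (19.4 to 37.4; 25 of 91) from 400 bp. Score and width rose together within this class. At a single score, 5.56, the shares were 3.30% (2.39 to 4.53) under 150 bp, 2.29% (1.77 to 2.96) from 150 to 200 bp and 4.05% (2.95 to 5.53) from 200 to 300 bp. They were 9 of 107 (8.41%, 4.49 to 15.2) from 300 to 400 bp and 1 of 18 from 400 bp, and most of these intervals overlapped.

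Most of the list did not overlap a peak of the other antibodies. The BRWD1 lists covered 0.0181% and 0.0819% of the chromosome span in replicates 1 and 2, and the H3K9Ac lists 0.182% and 0.167%. The share of arbitrary places that meet these lists was not measured, so a low overlap does not show that the marks are unrelated. None of the 4 BRWD1 and H3K9Ac lists had a peak at 9579 of the 10637 replicate 2 peaks (90.1%). A further 544 met 1 of these lists, 234 met 2, 133 met 3 and 147 (1.38%) met all 4. The stronger class was divided differently, with 54 of 211 peaks meeting none and 86 meeting all 4. Every one of the 55 peaks scored 15 or more met at least 1 list, and 43 met all 4. The highest-scored peak that met none had a score of 13.11, at chromosome 16, 93144785 to 93144996. One peak scored 15 or more had no H3K9Ac in either replicate, at chromosome 4, 118221094 to 118221342 (score 19.55). It lay at weak peaks of both BRWD1 lists (scores 5.17 and 5.65). Both of these peaks were singled out after their values were seen.

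Most replicate 2 peaks without H3K9Ac lay more than 10 kb from the nearest H3K9Ac peak. The distance of arbitrary places to H3K9Ac was not measured, so the values below have no background beside them. Of all 10637 peaks, 7.80% overlapped H3K9Ac of either replicate, 2.12% lay within 1 kb, 11.5% at 1 to 10 kb, 50.8% at 10 to 100 kb and 27.7% beyond 100 kb. The 9807 without overlap had a median distance of 49.8 kb, with quartiles of 18.9 and 120.8 kb. Among the 211 stronger peaks the shares were 68.2% overlapping and 0.474% within 1 kb. Of these stronger peaks, 60 lay more than 10 kb from the nearest H3K9Ac peak and 7 lay nearer without overlap.

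The strongest peaks of replicate 2 lay where the other antibodies also gave strong peaks. The highest score, 70.64, was at chromosome 4, 124546358 to 124546825. All 5 other lists had a peak there, with scores of 102.43 and 150.45 in BRWD1 replicates 1 and 2, 120.30 and 63.36 in H3K9Ac, and 11.34 in H3S10pK14Ac replicate 1. The peaks ranked 2 and 4 lay at the end of Igk on chromosome 6, from 70672386 to 70673746 (score 70.57) and from 70675506 to 70676190 (score 63.31). A single H3K9Ac replicate 1 peak, scored 676.01, covered both. The peak ranked 4 partly overlapped the strongest peak of H3S10pK14Ac replicate 1, at 70675737 to 70676848 with a score of 85.81, while the peak ranked 2 was 1991 bp from it.

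The peaks ranked 3 and 6 lay within 5.164 kb of each other on chromosome 2, at 98502372 to 98503149 (score 65.89) and 98506324 to 98507535 (score 37.94). That stretch held 4 replicate 2 peaks, all scored 10 or more. The BRWD1 and H3K9Ac lists had 4 or 5 peaks each in or near it, and H3S10pK14Ac replicate 1 had 0. Those of H3K9Ac replicate 2 reached beyond it, to 98516519. Whether input DNA also gives peaks in this stretch was not tested. The peak ranked 5, at chromosome 9, 35112729 to 35113168 (score 58.16), also met all 4 of those lists. The remaining 4 of the 10 highest had scores from 28.95 to 32.92 on chromosomes 13, 12, 13 and 7, and all 4 met every BRWD1 and H3K9Ac list. In sum, 9 of the 10 highest met all 4 lists, as did 65 of the 100 highest.

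The widest peaks were partly the same ones. The widest was the Igk peak of 1361 bp, and the chromosome 2 peaks of 1212 and 778 bp were also among the 5 widest. The others were a peak of 949 bp at chromosome 17, 39984283 to 39985231 (score 17.82), and one of 815 bp at chromosome 14, 103863429 to 103864243 (score 14.45). Both met all 4 BRWD1 and H3K9Ac lists and neither was found in replicate 1.

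Neighbouring replicate 2 peaks were far apart, and the list had few tight groups. The median gap was 133.4 kb (quartiles 50.5 and 299.7 kb) and the mean gap 240.8 kb. Of the 10617 gaps, 685 were under 10 kb (6.45%, 6.00 to 6.94). An exponential distribution with the same mean gap, which is what independent uniform placement would give, puts 4.07% there, so short gaps were 1.59 times as frequent. In H3K9Ac the share under 10 kb was 28.9% and 25.1% in replicates 1 and 2, 7.46 and 4.02 times the exponential share. Under 1 kb the contrast was wider: 1.18% of the H3S10pK14Ac gaps against 18.7% and 14.8% of the H3K9Ac gaps. BRWD1 was close to H3S10pK14Ac, with 3.92% and 5.36% of gaps under 10 kb in replicates 1 and 2. These were 1.75 and 1.41 times the exponential share. The reference ignores sequence that reads cannot be mapped to.

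**Figure D2:**
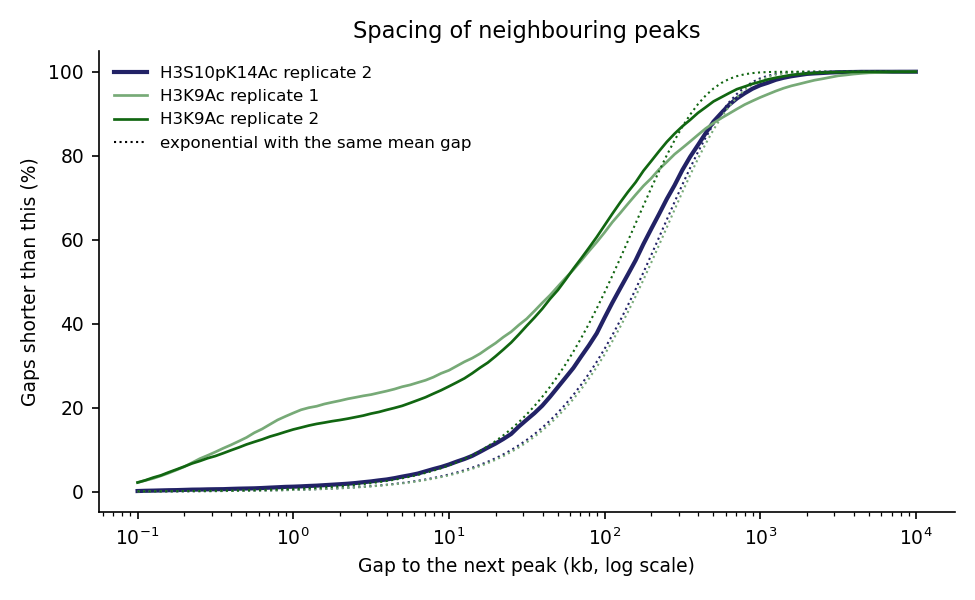
Share of gaps between neighbouring peaks (vertical axis, percent) shorter than a given length (horizontal axis, kb, log scale) for H3S10pK14Ac replicate 2 and both H3K9Ac replicates. Dotted lines are exponential distributions with the same mean gap. The H3S10pK14Ac curve stays near its dotted line, with 6.45% of gaps under 10 kb, while 28.9% and 25.1% of the H3K9Ac gaps are that short.

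Chains of peaks, in which each peak lay within 10 kb of the next, gave the same picture. In replicate 2, 9345 peaks stood alone (87.9%), 567 pairs formed, and 40 chains of 3 or more held 158 peaks (1.49%). In H3K9Ac 51.6% and 59.1% of peaks stood alone and 20.3% and 19.7% were in chains of 3 or more. In BRWD1 93.3% and 90.2% stood alone and 1.51% and 1.74% were in such chains, near the H3S10pK14Ac shares. The longest H3S10pK14Ac chain held 25 peaks in 36.5 kb at the start of chromosome 9, from 2999975 to 3036483. The longest chain of H3K9Ac replicate 2 (23 peaks) and those of BRWD1 (44 and 33 peaks) lay at the same place.

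Per megabase, the replicate 2 peaks were spread more evenly than H3K9Ac. The 2587 windows of 1 Mb held 4.11 ± 2.96 peaks (mean ± SD over windows), with a median of 4 and a range from the 10th to the 90th percentile of 1 to 8. Clumping, the variance in excess of the mean divided by the squared mean, is 0 for independent placement and does not grow with the length of the list. It was 0.274 for H3S10pK14Ac replicate 2, and 1.36 and 0.760 for H3K9Ac replicates 1 and 2. The ratio was 0.201 and 0.360 to each H3K9Ac list and 0.258 to their mean. Windows with 20 or more peaks numbered 1 for H3S10pK14Ac, and 49 and 108 for H3K9Ac. The densest 10% of windows held 24.6% of the H3S10pK14Ac peaks, against 40.0% and 31.7% of the H3K9Ac peaks. BRWD1 had clumping values of 0.274 and 0.163, at or below that of H3S10pK14Ac.

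**Figure D3:**
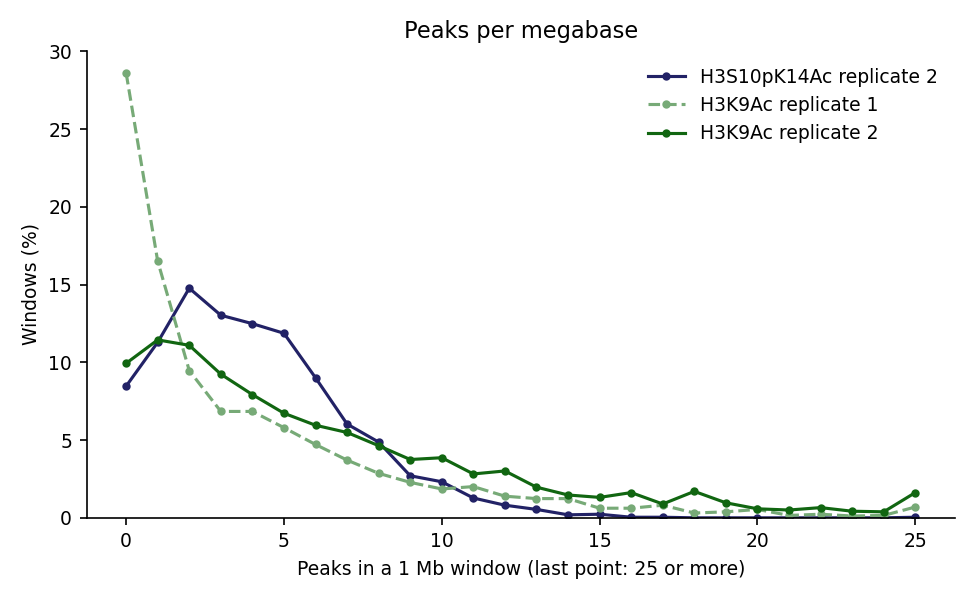
Share of 1 Mb windows (vertical axis, percent) by the number of peaks they hold (horizontal axis; the last point is 25 or more) for H3S10pK14Ac replicate 2 and both H3K9Ac replicates. Empty windows make up 8.47% for H3S10pK14Ac, and 28.6% and 9.93% for H3K9Ac, and windows with 20 or more peaks number 1 for H3S10pK14Ac, and 49 and 108 for H3K9Ac.

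The weak peaks were more even than H3K9Ac, whereas for the strong ones the order depended on a few crowded places. Clumping was 0.266 for the peaks scored under 10 and 10.9 for the 211 scored 10 or more, where H3K9Ac peaks of that score had 1.97 and 1.95. The ratio to the H3K9Ac mean was then 5.55, above 1. A single window, at the start of chromosome 9, held 13 of the 211 peaks. Without the start of chromosome 9 and the chromosome 2 stretch, clumping at that score was 1.48 and the ratio 0.759. Peaks with H3K9Ac in either replicate had a clumping of 2.45 and those without had 0.261. The window at the start of chromosome 9 held 21 of the 830 peaks with H3K9Ac, and their clumping without it was not computed. In the whole replicate 2 list, empty windows were still more frequent than a Poisson distribution of the same mean gives, 8.47% against 1.64%.

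The densest windows of replicate 2 were of different kinds. The first, 3 to 4 Mb of chromosome 9, held 25 peaks, all in the chain named above. All 25 overlapped BRWD1 and 21 overlapped H3K9Ac, and their highest score was 25.01. Replicate 1 had 0 peaks in that window, and whether input DNA gives peaks there was not tested. The second, 119 to 120 Mb of chromosome 12, held 17 peaks spread over 698.5 kb. Their scores were at most 9.03, and 0 of them overlapped a BRWD1 or H3K9Ac peak, although the window held 4 and 5 BRWD1 and 0 and 5 H3K9Ac peaks. The next was 130 to 131 Mb of chromosome 8 with 16 peaks, of which 1 overlapped H3K9Ac, 0 overlapped BRWD1 and 0 scored 10 or more. After it, 6 windows tied with 15 peaks each, among them 169 to 170 Mb of chromosome 2 and 113 to 114 Mb of chromosome 5. In each of the 6, between 0 and 2 peaks overlapped H3K9Ac, and at most 1 overlapped BRWD1 or scored 10 or more.

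Windows with more H3K9Ac peaks also held more H3S10pK14Ac peaks on average. By H3K9Ac replicate 2, windows with 0, 1 to 5, 6 to 10 and over 10 H3K9Ac peaks held 1.55 ± 1.63, 3.29 ± 2.45, 5.35 ± 2.92 and 5.82 ± 2.97 H3S10pK14Ac replicate 2 peaks (mean ± SD over windows). By H3K9Ac replicate 1 the means were 2.36, 4.43, 5.46 and 5.52. The order was nearly the same for the peaks that overlapped no H3K9Ac peak, with means of 1.54, 3.13, 4.95 and 5.06 by replicate 2. By H3K9Ac replicate 1, these means were 2.32, 4.12, 4.90 and 4.75. BRWD1 rose over the same classes of H3K9Ac replicate 2, with means of 1.44, 2.05, 2.57 and 2.71 in replicate 1. In BRWD1 replicate 2 they were 1.83, 3.15, 4.57 and 5.64. Across the 2587 windows Spearman's rho was 0.46 with H3K9Ac replicate 1 and 0.53 with replicate 2 (Pearson's r 0.31 and 0.42). With BRWD1 replicates 1 and 2 rho was 0.26 and 0.45 (Pearson's r 0.28 and 0.44), so the relation was not particular to H3K9Ac. Both H3K9Ac replicates were related to each other with a rho of 0.84. The windows share mappability and base composition, and how far these enter the values was not tested.

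By chromosome, the H3S10pK14Ac density varied little among autosomes and was low on X. It ran from 3.72 peaks per Mb on chromosome 4 to 5.10 on chromosome 19, with a coefficient of variation of 7.79% over autosomes. H3K9Ac varied more, with coefficients of 25.4% and 18.4%, and was highest on chromosome 11 in both replicates. BRWD1 had coefficients of 12.3% and 7.25% in replicates 1 and 2, so its replicate 2 varied as little as H3S10pK14Ac. X had 1.66 H3S10pK14Ac peaks per Mb, 0.386 of the autosomal density. The same ratio was 0.268 and 0.249 for H3K9Ac, and 0.591 and 0.432 for BRWD1. The labels do not give the sex of the mice, so the copy number of X is not known.

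**Figure D4:**
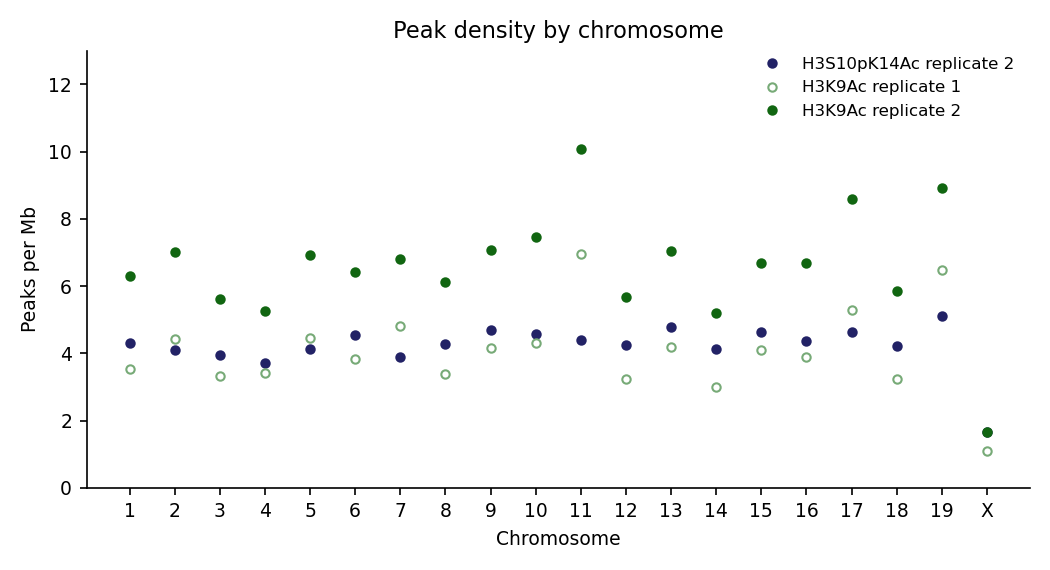
Peaks per Mb (vertical axis) on chromosomes 1 to 19 and X (horizontal axis) for H3S10pK14Ac replicate 2 and both H3K9Ac replicates, 1 point per list. The H3S10pK14Ac points lie between 3.72 and 5.10 on autosomes and at 1.66 on X, where the point coincides with that of H3K9Ac replicate 2.

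Few replicate 2 peaks were found again in replicate 1, and most of those that were belonged to the stronger class. Of the 102 replicate 1 peaks, 31 (30.4%, 22.3 to 39.9) overlapped 32 replicate 2 peaks, which are 0.301% of that list. By replicate 2 score, 22 of the 211 peaks from 10 were found again (10.4%, 6.99 to 15.3) and 10 of the 10426 under 10 (0.0959%, 0.0521 to 0.176). The found peaks had a median score of 15.86 (5.56 to 70.64) and a median width of 240 bp, and the others had 5.56 and 175 bp. The other 189 of the 211 peaks from 10 had no counterpart. Only 10 of the 32 found peaks were among the 32 highest-scored, and the lowest-ranked was number 6213.

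By replicate 1 score, 7 of the 8 peaks from 10 were found, 9 of 13 from 8 to 10, 11 of 29 from 6 to 8 and 4 of 52 under 6. The scores of the 7 were 85.81, 18.62, 14.96, 11.35, 11.34, 10.95 and 10.20 in replicate 1. Their replicate 2 partners scored 63.31, 24.85, 15.86, 6.86, 70.64, 6.70 and 7.95 in the same order. Thus 3 of these 7 partners were in the weaker class of replicate 2. The peaks scored 11.35 and 10.20 lay at chromosome 11, 115275094 to 115275154, and chromosome 10, 41302099 to 41302156. The peak ranked 10 in replicate 1, at chromosome 9, 102030239 to 102030295 (score 9.77), was also found, with a partner scored 18.76. Among these found peaks, the strongest after the Igk peak were at chromosome 2, 149350334 to 149350404, and at chromosome 10, 100853016 to 100853077. The exception was a peak of score 15.17 at chromosome 15, 74915957 to 74916034. It lay 1154 bp from the nearest replicate 2 peak and met 1 other list, BRWD1 replicate 1 (score 6.83).

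Found peaks coincided closely. The midpoints of partners were a median of 7 bp apart (0 to 444.5), and 29 of the 31 replicate 1 peaks lay wholly inside the wider replicate 2 peak. The replicate 2 partner was a median of 3.94 times as wide. The 71 replicate 1 peaks not found were not near misses for the most part: their median distance to replicate 2 was 56.3 kb, and 2 lay within 1 kb and 12 within 10 kb.

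The found peaks were almost wholly those where BRWD1 and H3K9Ac peaks of both replicates also lay. Of the 31 replicate 1 peaks that met all 4 of those lists, 29 were found in replicate 2 (93.5%, 79.3 to 98.2). Of the 63 that met none, 0 were found, which allows a share of up to 4.76%. Of the 8 in between, 2 were found, both meeting 3 lists. Seen from replicate 2, 29 of 147 peaks that met all 4 lists were found again (19.7%, 14.1 to 26.9), and 3 of 133 that met 3. Of the 544 and 234 peaks that met 1 and 2 lists, 0 were found. Of the 9579 that met none, 0 were found, which allows a share of up to 0.0313%. This also held in the stronger class, where 20 of 86 with all 4 lists and 0 of 54 with none were found. In the weaker class it was 9 of 61 and 0 of 9525. The split by the other lists was chosen after earlier values were seen. Whether these places also give peaks in the input DNA was not tested, since input lists are not analysed here.

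**Figure D5:**
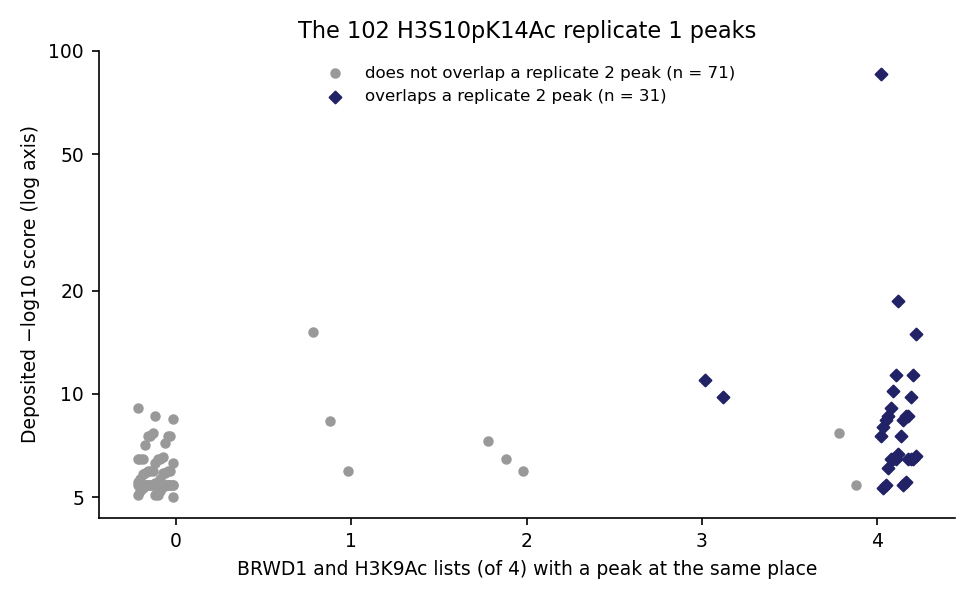
Deposited −log10 score (vertical axis, log scale) of the 102 H3S10pK14Ac replicate 1 peaks by the number of BRWD1 and H3K9Ac lists, of 4, with a peak at the same place (horizontal axis; points are spread sideways to be seen). Diamonds are the 31 peaks that overlapped replicate 2 and circles the 71 that did not. Diamonds stand only at 3 and 4 lists, and 63 circles stand at 0.

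The 2 found peaks that met 3 lists both lay on chromosome 8, at 55392144 to 55392210 (replicate 1 score 9.77, replicate 2 score 10.40) and 56064522 to 56064581 (10.95 and 6.70). Both lacked H3K9Ac replicate 2. The 2 peaks that met all 4 lists and were not found were at chromosome 6, 4874023 to 4874075 (score 5.43), and at chromosome 12, 114666041 to 114666651 (score 7.70). The latter is 611 bp wide, lies in the immunoglobulin heavy chain locus Igh, and was 1744 bp from the nearest replicate 2 peak. All 4 were singled out as exceptions after their values were seen.

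The replicate 1 peaks not found were partly grouped. A stretch of 248.9 kb on chromosome 8, from 19727399 to 19976252, held 8 of the 102 replicate 1 peaks (7.84%), with scores from 5.08 to 9.08. Replicate 2 had 0 peaks in it, and its nearest peak was 762 to 1011 kb away. BRWD1 replicate 1 had 3 peaks there and H3K9Ac replicate 1 had 1, and replicate 2 of both had 0. In all, 18 replicate 1 peaks lay in 5 windows of 1 Mb that held 2 or more, and 1 of the 18 was found in replicate 2. This group was singled out after its values were seen.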

How the data were processed

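Peaks of 6 ChIP-seq libraries of mouse small pre-B cells were used, 2 biological replicates per antibody. Samples were grouped by title and description, and replicate numbers came from the same labels. The build was mm9, and MACS2, Picard, BWA 0.7.5 and Trimmomatic 0.32 were used, per the submitters' processing notes. Their settings and the control library are not stated in the labels. The authors deposited 1 list per library, with no pooled replicates. Scores were taken as the authors' −log10 of a p-value or q-value (which of them is not stated), as read from the list names and from values that all lie at 5.01 or above. Coordinates count from 1.

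Overlap meant at least 1 bp. Scores were divided at 10, windows were 1 Mb, and near gaps were under 10 kb. Named regions were the 10 highest scores of each H3S10pK14Ac list, the 5 widest peaks and 5 densest windows of replicate 2, replicate 1 peaks from 10, and the 3 peaks on each side of 10. Intervals are 95% Wilson intervals. A count of 0 was given the limit of 3 counts. The members, lists and rules were chosen with earlier results of these data known. Python 3.11.15, numpy 2.4.6, pandas 2.3.3, scipy 1.17.1 and matplotlib 3.10.9 were used, and overlap and clumping were tested on simulated data. Alternatives were other overlaps, score limits, gap limits and window settings, equal numbers of peaks, leaving out a list, and leaving out places shared by many lists. Igk and Igh were placed from general knowledge of mm9, and no peak was assigned to another gene.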

Additional observations from a re-analysis of the deposited data

Results flagged for a closer look

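H3S10pK14Ac replicate 2 had 4 peaks on the mitochondrial genome, which no comparison used, against the 3 that a count of 0 allows. BRWD1 replicates 1 and 2 had 2 and 16 such peaks, H3K9Ac had 0 and 15, and H3S10pK14Ac replicate 1 had 0.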

How the results depend on the processing

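Of 65 alternative settings, 42 left the value within its 95% interval, 22 moved it further and 1 reversed it. For means over H3K9Ac lists the limit was 1 SD. Leaving out 1 of the 2 H3K9Ac lists cannot move a mean share by 1 SD, so those settings could only count among the 42. The settings that leave out places or combine a score limit with such an omission were chosen after seeing the data. The cause was not tested. The share of replicate 1 peaks found in replicate 2 (30.4%) was 50% for scores above the median, 11% without the 1% highest scores, 18.6% for equal numbers of top-scored peaks and 2.82% without peaks that met all 4 BRWD1 and H3K9Ac lists. The share of replicate 2 peaks scored 10 or more found in replicate 1 (10.4%) was 0.962% without the 1% highest scores, 4.06% at a limit of 8, 31.25% at 20 and 0.80% without peaks at all 4 lists; that of the weaker peaks (0.0959%) was 0.207% at a limit of 20 and 0.00965% without peaks at all 4 lists. Setting aside those places lowers the shares by construction, since they hold nearly all found peaks. The share of stronger peaks at H3K9Ac (57.6%) was 34.6% without the 1% highest scores, 31.6% at a limit of 8 and 95.3% at 20; leaving out each H3K9Ac replicate gave 48.8 to 66.4%, and 2.97 to 5.84% for weaker peaks.

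The ratio of clumping to H3K9Ac (0.258) was 5.55 for scores of 10 or more, which reversed the order, and 0.759 when the start of chromosome 9 and the chromosome 2 stretch were also left out; leaving out each H3K9Ac replicate gave 0.201 to 0.360. The frequency of short gaps against the exponential (1.59 times) was 2.84 times for gaps under 1 kb, 1.32 under 50 kb, 1.33 with peaks closer than 1 kb merged, 121.4 for scores of 10 or more and 48.3 without the same 2 places. The share of stronger peaks (1.98%) was 5.33% at a limit of 8, 0.301% at 20 and 7.84% when replicate 2 was left out and replicate 1 used. No paired analysis was possible because the results come from no test. Depth is unknown, and the 8 replicate 1 peaks scored 10 or more limit what that list can show.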

Other observations

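In the Igh part of chromosome 12, no H3S10pK14Ac replicate 2 peak reached a score of 10. Its highest there was 7.92, at 114663567 to 114663862, followed by 7.89 at 113451124 to 113451448 and 6.91 at 114664137 to 114664297. The first and last of these met all 4 BRWD1 and H3K9Ac lists and the one between met none.

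At the end of Igk, replicate 2 listed 2 further peaks scored 10 or more beside the pair named above. They lay at chromosome 6, 70676253 to 70676642 (score 22.34), and 70673806 to 70674204 (score 16.70), and each met 3 of the BRWD1 and H3K9Ac lists. The first lies under the same replicate 1 peak as the replicate 2 peak ranked 4, which is why 31 replicate 1 peaks met 32 replicate 2 peaks.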
